A study of Oryza sativa with 6 samples.

Results

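Roots of Prasanna and Varadan, both varieties of rice (Oryza sativa), were compared under supplemented nitrogen, with 2 Varadan arrays set against 2 Prasanna arrays of the 6 arrays in the series. The arrays were taken by their labels, as all those of seedlings that received nitrogen, and no array of seedlings without nitrogen entered the fit. Both groups were described as 14-day-old seedlings in hydroponics. They had germinated for 7 days, had then spent 10 days in Yoshida medium, a nutrient solution for rice, with nitrogen, and were last moved to Yoshida medium with nitrogen supplemented. The stated 7 and 10 days exceed the stated 14, so the age is uncertain. The varieties differ in their whole genetic background, and the labels name no single allele that sets them apart. Total RNA of the roots was labelled with biotin and hybridised to Affymetrix rice arrays, 1 sample per array. Each value is a log2 signal of a probe set, a group of short probes that together measure 1 transcript. Whether the replicates of a variety were grown or extracted separately is not stated. The p-values therefore cover the spread among these 4 arrays, part or all of which may be technical, and their small number limits the precision.

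Rice roots take up nitrate and ammonium through dedicated transporters, and both are built into amino acids by reductases and synthetases. Iron enters rice roots as the free ion through the IRT transporters. It also enters as a complex with mugineic acids, chelators made from nicotianamine that are secreted and taken back up by yellow stripe-like (YSL) transporters. OsIRO2 is a transcription factor known to raise many genes of the chelator route when iron is short. Differences between varieties of a crop can lie in the RNA level or in the gene sequence under the probes, and the array cannot tell these apart.

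The label of 1 Varadan array was not certain. The deposited log2 table and the deposited series matrix hold the same signals, but the column of Varadan with nitrogen, replicate 1, is exchanged between them with that of the Varadan array without nitrogen. No source says which table is right, so values for Varadan replicate 2 alone against both Prasanna arrays are given beside the main ones. That alternative shares all its 3 arrays with the main comparison and is no second experiment. Several nitrogen genes on the array of Varadan replicate 1 also lay near their levels without nitrogen. OsHb2, a haemoglobin gene, read 5.55 log2 there, against 13.85 on Varadan replicate 2, 13.81 and 14.02 in Prasanna with nitrogen, and 5.73 and 8.33 on the arrays of Prasanna and Varadan without it. The arrays without nitrogen served for this look at the label and for a few readings given below. They did not enter the main comparison or that of Varadan replicate 2 alone. The alternatives with the series matrix and with group means over 6 arrays do use them. Across tested probe sets the Prasanna arrays correlated at r = 0.931 and the Varadan arrays at 0.915, while pairs of arrays from different varieties lay between 0.865 and 0.897. The median SD within a pair was 0.242 log2 in Prasanna and 0.328 in Varadan. The root markers OsRCc3, OsLsi1, OsLsi2 and OsPIP2.3 lay between 13.57 and 15.91 log2 on all 4 arrays. Several measures moved with the varieties. The 3′ minus 5′ difference of the GAPDH control, a sign of RNA quality, was 3.52 and 3.11 log2 in Prasanna but 4.38 and 4.41 in Varadan. The same difference of the actin control did not part the varieties, at 5.18 and 5.15 in Prasanna, against 5.82 and 5.15 in Varadan. For the Bacillus transcripts added as a control, the mean was 11.13 and 9.94 on the Prasanna arrays, above the 9.63 and 7.88 of Varadan. The Rubisco small subunit gene OsRBCS2, a marker of green tissue, stood at 11.81 and 10.77 on the Prasanna arrays and at 13.72 and 12.05 on those of Varadan. Of the 4 tested green tissue genes 0 were called, 2 lay higher in Varadan without overlap (0.849% and 19.4% of all tested genes), and the mean over them was 12.15 and 11.59 in Prasanna, against 13.55 and 12.30 in Varadan. OsMCM2 and PCNA, markers of dividing root tips, read 9.62 to 10.26 and 10.91 to 11.48 in Prasanna, and 10.38 to 10.39 and 11.35 to 11.43 in Varadan, so that PCNA overlapped. The part of these measures in the variety differences was not tested.

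Between the varieties 290 of 34316 tested probe sets passed the test, 158 higher (0.460%) and 132 lower (0.385%) in Varadan (0.845% of those tested in all, limma with Benjamini-Hochberg adjustment at 0.05). The smallest adjusted p was 0.003. At an unadjusted p under 0.05, 1407 were higher and 1513 lower. As deposited, the median size of the called differences was 4.68 log2, with a range from 1.47 to 12.6, and 176 of them reached at least 4 log2. A test on so few arrays favours wide differences. Over all tested genes the median size was 0.284 log2. With 1 probe set taken per gene, 108 of 21661 genes were higher (0.499%) and 76 lower (0.351%), and the median difference over all tested genes was 0.01 log2. With Varadan replicate 2 alone, which uses 3 of the same 4 arrays so that agreement is largely built in, 265 of the 290 probe sets also passed. That comparison called 608 probe sets (1.77%), 247 higher and 361 lower. Over genes it called 1.84%, 0.826% higher and 1.01% lower. The count hung on single arrays: it was 0 without Prasanna replicate 1 (smallest adjusted p 0.052, with 2002 probe sets at an unadjusted p under 0.05), 54 without Prasanna replicate 2 and 1313 without Varadan replicate 2. Without a trend of variance on level, limma called 53.

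**Figure D1:**
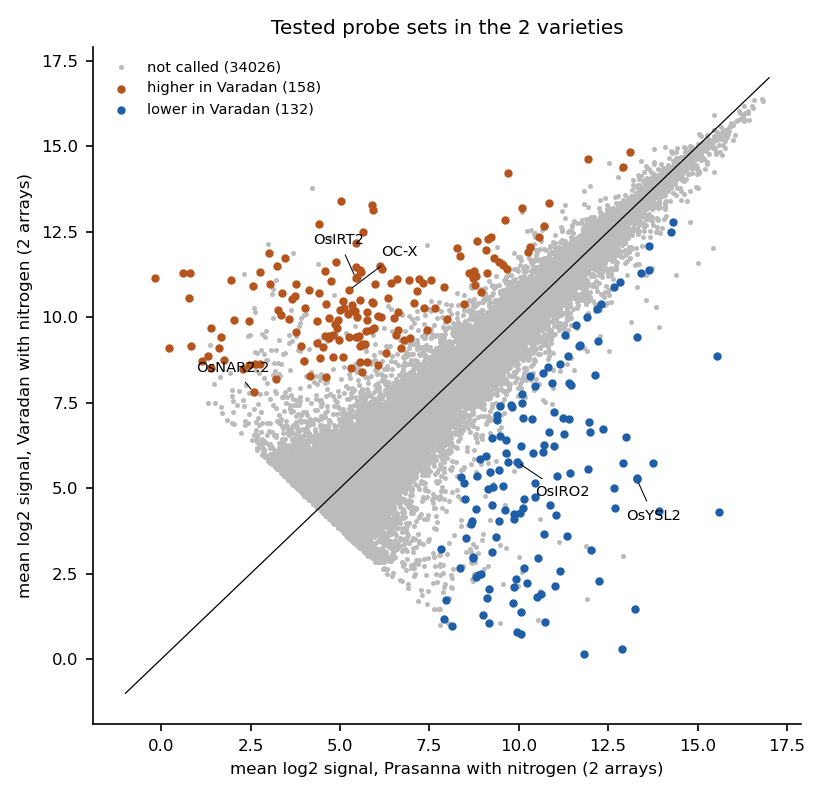
Mean log2 signal of each of 34316 tested probe sets on the 2 Prasanna arrays (horizontal) and the 2 Varadan arrays (vertical), both with nitrogen; the line marks equal signal. The 158 probe sets called higher and the 132 called lower in Varadan lie far from the line, and the oblique edge at the lower left is the filter on low values.

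Many of these differences ran from a clear signal to none above background. In 97 of the 290 probe sets both arrays of one variety lay under the array's own 40th percentile (4.89 to 5.07 log2), a level not taken as above background here: 48 in Prasanna and 49 in Varadan. Where a reading lay under that percentile, the difference is given as a bound with the reading raised to it. Over genes, 76 lay above the 60th percentile on both Varadan arrays and under the 40th on both Prasanna arrays (0.351% of tested genes). The reverse held for 65 (0.300%). Of these, 32 and 26 passed the test, where 0.849% of all tested genes did. They were picked on the same readings that were tested, which favours a pass. By the widest gap between the varieties, the leading genes of the 76 were Os09g0310800, Os06g0160001, Os04g0478000, Os09g0392666 and Os11g0691100. Those of the 65 were Os01g0539900, Os03g0103800, Os10g0186800, Os01g0538000 and Os01g0119500. Neither the files nor the reference gene table gives these loci a name. Os06g0160001 read 4.66 and 4.19 log2 in Prasanna but 12.90 and 12.55 in Varadan, a difference of at least 7.74 (adjusted p = 0.003). Os03g0103800 stood at 11.09 and 10.96 on the Prasanna arrays and at 2.16 and 2.14 on those of Varadan, a difference of -6.10 or lower (adjusted p = 0.003). The varieties lay far apart on every array in both cases, which follows from the choice by gap. Among the genes with a name, OsNAR2.2, CYP71Z6 and PIK6-NP were of the kind seen in Varadan alone, and OsKS2 and HXK4 of the kind seen in Prasanna alone.

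Among the genes with a name, each by its brightest probe set, the 2 widest called differences were in iron genes, OsYSL2 and OsIRT2. OsYSL2 (Os02g0649900), a transporter of iron and manganese bound to nicotianamine, read 13.02 and 13.58 log2 in Prasanna, against 3.83 and 6.70 in Varadan. It was among the brighter genes of both Prasanna arrays and low on both Varadan arrays, although these differed from each other. The difference was -7.51 log2 or lower, at least 182-fold (adjusted p = 0.0299), and -6.60 ± 0.30 (SE) with Varadan replicate 2 alone (adjusted p = 0.00049). OsIRO2 (Os01g0952800) read 10.07 and 9.84 in Prasanna but 6.07 and 5.46 in Varadan. Its groups lay apart with close replicates, and it was 18.3-fold lower in Varadan (-4.19 ± 0.35 log2, adjusted p = 0.0133). OsIRT2 (Os03g0667300), an iron transporter of the root surface, went the other way, at 4.70 and 6.18 in Prasanna and 11.65 and 10.64 in Varadan. It rose from near or under background in Prasanna to a high signal on both Varadan arrays, by at least 5.52 log2 (at least 45.9-fold, adjusted p = 0.0239). With Varadan replicate 2 alone OsIRO2 read -4.49 ± 0.31 (adjusted p = 0.00223) and OsIRT2 at least 5.02 (adjusted p = 0.019). In the series matrix, whose column for Varadan replicate 1 holds the other array, OsYSL2 read -6.51, OsIRO2 -4.91 and OsIRT2 6.12, each past the threshold (adjusted p of 0.00335, 0.0142 and 0.0323).

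The rest of the iron acquisition list had no called gene. Of its 10 tested genes, 1 was called higher and 1 lower, where 0.499% and 0.351% of all genes were, and the list's median difference was -0.18 log2 (0.19 with Varadan replicate 2 alone). No gene of chelator synthesis passed. OsNAS1 (Os03g0307300), a nicotianamine synthase, stood at 16.50 and 16.40 on the Prasanna arrays and at 15.69 and 15.84 on those of Varadan, a difference of -0.68 ± 0.14 (adjusted p = 0.173). OsNAS2 differed by -0.37 ± 0.16, OsNAAT1, the nicotianamine aminotransferase, by -0.38 ± 0.22 and OsDMAS1, which completes deoxymugineic acid, by -0.26 ± 0.41 (adjusted p of 0.627, 0.752 and 0.911). OsTOM1, the efflux carrier of deoxymugineic acid, read -0.10 ± 0.24 and OsYSL15, which takes its iron complex back up, -0.56 ± 0.39 (adjusted p of 0.949 and 0.789). OsIRT1 (Os03g0667500), the neighbour of OsIRT2 on chromosome 3, read 14.34 and 14.45 in Prasanna, against 14.95 and 14.69 in Varadan (0.42 ± 0.17, adjusted p = 0.591). It was thus high on every array, while OsIRT2 was not. OsNRAMP5, the manganese and cadmium transporter of rice roots, differed by 0.82 ± 0.19 and OsNRAMP1 by -0.08 ± 0.45 (adjusted p of 0.218 and 0.978).

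Related metal transporters beyond that list were read by family. Of 12 ZIP and IRT transporters 1 was called higher and 0 lower, with a median difference of 0.26 log2 (0.499% and 0.351% of all genes were called). OsZIP3 (Os04g0613000), of the zinc and iron permease family, read 7.17 and 6.57 in Prasanna but 9.44 and 9.15 in Varadan, without overlap, but its difference of 2.42 ± 0.34 missed the threshold (adjusted p = 0.0603). The reference table gives the same name to Os05g0198400, which differed by 0.54 ± 0.25. OsZIP4 (Os08g0207500) stood at 9.50 and 9.36 on the Prasanna arrays and at 8.29 and 8.31 on those of Varadan (-1.13 ± 0.26, adjusted p = 0.212). Of 13 tested YSL transporters, 0 were called higher and 1 lower, beside the same shares of all genes, with a median of -0.26 (-0.10 with Varadan replicate 2 alone). OsVIT1.2 (Os09g0396900), named as a vacuolar iron transporter, read 13.09 and 12.87 in Prasanna, against 11.36 and 11.79 in Varadan, a difference of -1.41 ± 0.23 (adjusted p = 0.0906). MHX1 (Os11g0660000), named for the magnesium and proton exchangers of plants, read 7.25 and 7.08 in Prasanna but 10.92 and 9.42 in Varadan (3.01 ± 0.52, adjusted p = 0.105). In all 4 of these genes the varieties did not overlap, as in 37.9% of all tested genes, and none passed the test.

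**Figure D2:**
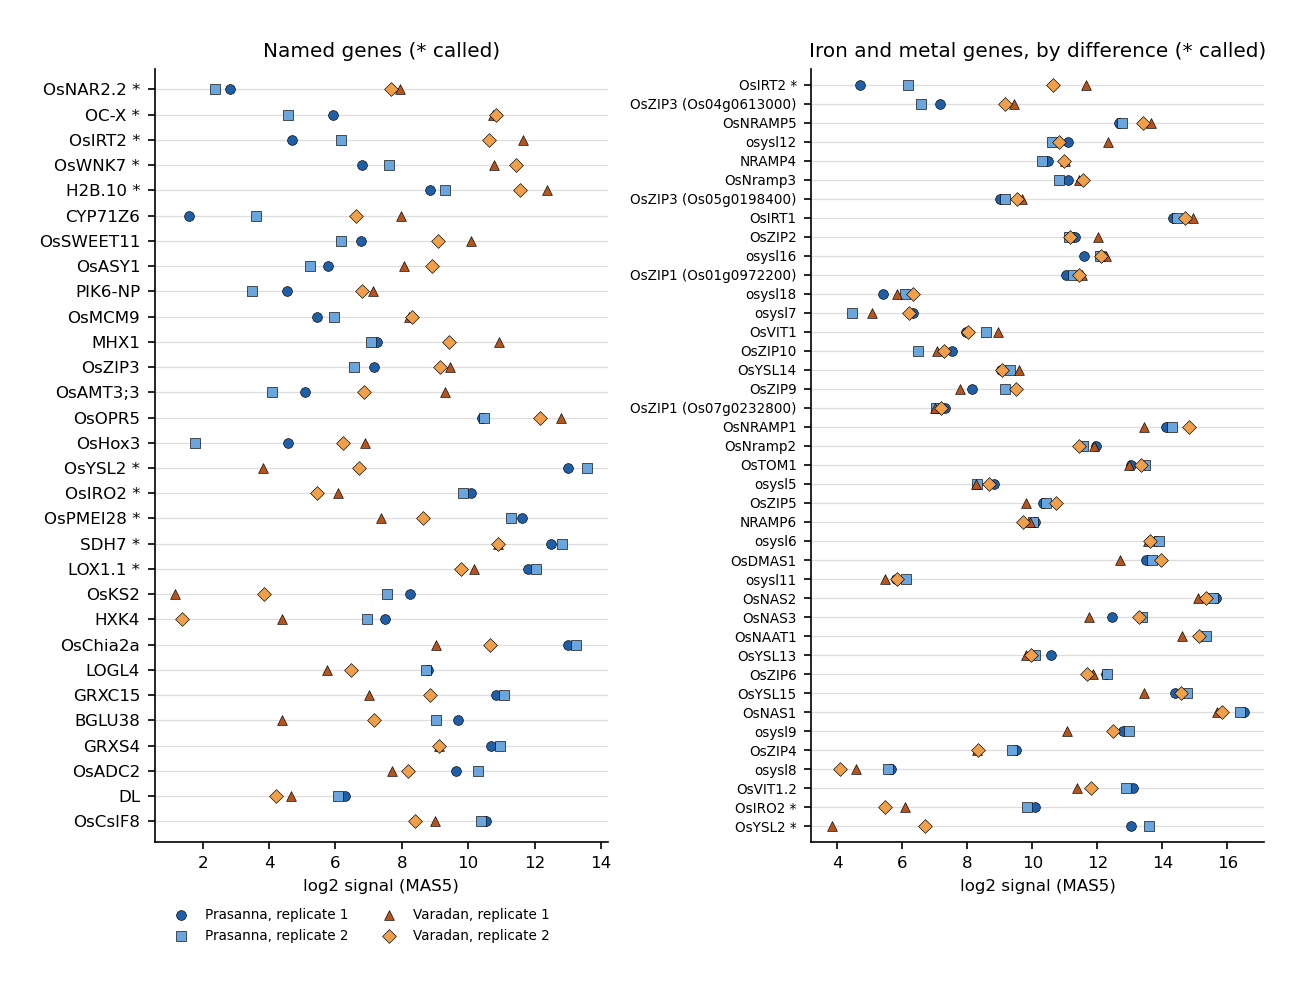
Log2 signal on each of the 4 arrays for the named genes (left, 15 higher and 15 lower in Varadan, ordered by call and gap) and for genes of iron and metal transport (right, ordered by difference). Circles and squares are Prasanna, triangles and diamonds Varadan; an asterisk marks a call. OsIRT2 stands at the top right of the metal genes and OsYSL2 and OsIRO2 at the bottom, and the others were not called.

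Genes of nitrogen uptake and use were the question of the series, and on these arrays 1 of 24 tested genes of 4 lists passed, where 0.849% of all tested genes did. That gene was OsNAR2.2 (Os04g0480200), a partner protein of the high-affinity nitrate transporters. It stood at 2.82 and 2.36 log2 on the Prasanna arrays and at 7.94 and 7.66 on those of Varadan, so it was not above background on either Prasanna array and clearly present on both Varadan arrays. The difference was at least 2.81 log2, at least 7.01-fold (adjusted p = 0.0455). With Varadan replicate 2 alone it was at least 2.68 and did not pass (adjusted p = 0.284). Its family member OsNAR2.1 (Os02g0595900), the main partner of the NRT2 transporters, read 9.68 and 11.30 in Prasanna, against 12.20 and 10.75 in Varadan (0.98 ± 0.68, adjusted p = 0.789), with overlap.

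The other nitrogen genes were set apart mostly by 1 array, Varadan replicate 1. OsHb2 (Os03g0226200), a non-symbiotic haemoglobin known to respond to nitrate, read 13.81 and 14.02 in Prasanna but 5.55 and 13.85 in Varadan. Only Varadan replicate 1 was low, and the difference of -4.22 ± 2.49 became -0.07 with replicate 2 alone. OsHb1 (Os03g0233900) stood at 12.41 and 12.15 on the Prasanna arrays and at 6.92 and 11.96 on those of Varadan, with the same array low. OsNRT2.3 (Os01g0704100), which encodes a nitrate transporter of high affinity, read 6.82 and 7.06 in Prasanna, against 12.29 and 7.78 in Varadan, with that array high (3.09 ± 1.38, and 0.84 with replicate 2 alone). The ammonium transporter gene OsAMT1.2 (Os02g0620500) read 4.10 and 6.40 in Prasanna but 10.78 and 4.41 in Varadan. OsDUR3 (Os10g0580400), a urea transporter, stood at 6.15 and 7.53 on the Prasanna arrays and at 10.94 and 7.02 on those of Varadan. Both were high on the same array only. OsNiR (Os01g0357100), the nitrite reductase, read 13.41 and 13.93 in Prasanna, against 10.73 and 14.31 in Varadan. OsAS1 (Os03g0291500), an asparagine synthetase, read 12.79 and 13.94 in Prasanna but 9.90 and 13.23 in Varadan. OsGDH2 (Os04g0543900), a glutamate dehydrogenase, stood at 11.96 and 11.80 on the Prasanna arrays and at 9.69 and 11.76 on those of Varadan. In these 3 the array was low. The median difference of the nitrate list (7 genes) was 0.98 log2 on 4 arrays and 0.26 with Varadan replicate 2 alone. That of the ammonium and urea list (5 genes) was 0.91 and 0.18, that of assimilation (10 genes) -0.43 and -0.11, and that of the haemoglobins (2 genes) -3.53 and -0.19.

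In OsNIA1, OsGS2 and OsAMT3;3 both Varadan arrays lay on the same side of both Prasanna arrays without a call. OsNRT2.2, OsNIA2 and OsAMT1.1 did so too, by smaller gaps. Of the 24 list genes 5 lay higher and 4 lower in Varadan without overlap. That is near the shares of all tested genes, 19.4% and 18.6%. OsNIA1 (Os08g0468100), a nitrate reductase, read 13.89 and 13.92 in Prasanna, against 13.24 and 13.15 in Varadan (-0.71 ± 0.16, adjusted p = 0.223). OsGS2 (Os04g0659100), the plastid glutamine synthetase, read 9.43 and 9.60 in Prasanna but 10.22 and 10.51 in Varadan (0.85 ± 0.25, adjusted p = 0.374). Neither passed, though the arrays of the varieties did not overlap. OsAMT3;3 (Os02g0550800), an ammonium transporter outside the list, stood at 5.07 and 4.10 on the Prasanna arrays and at 9.29 and 6.86 on those of Varadan, at least 3.08 log2 apart (adjusted p = 0.281) and at least 1.87 with replicate 2 alone (adjusted p = 0.435). Root glutamine synthetase OsGS1.2 (Os03g0223400) and OsAMT1.3 (Os02g0620600), as named here, differed by -0.15 ± 0.19 and 0.40 ± 0.29, with overlap; for the latter locus and that of OsAMT1.2 the synonyms conflict.

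**Figure D3:**
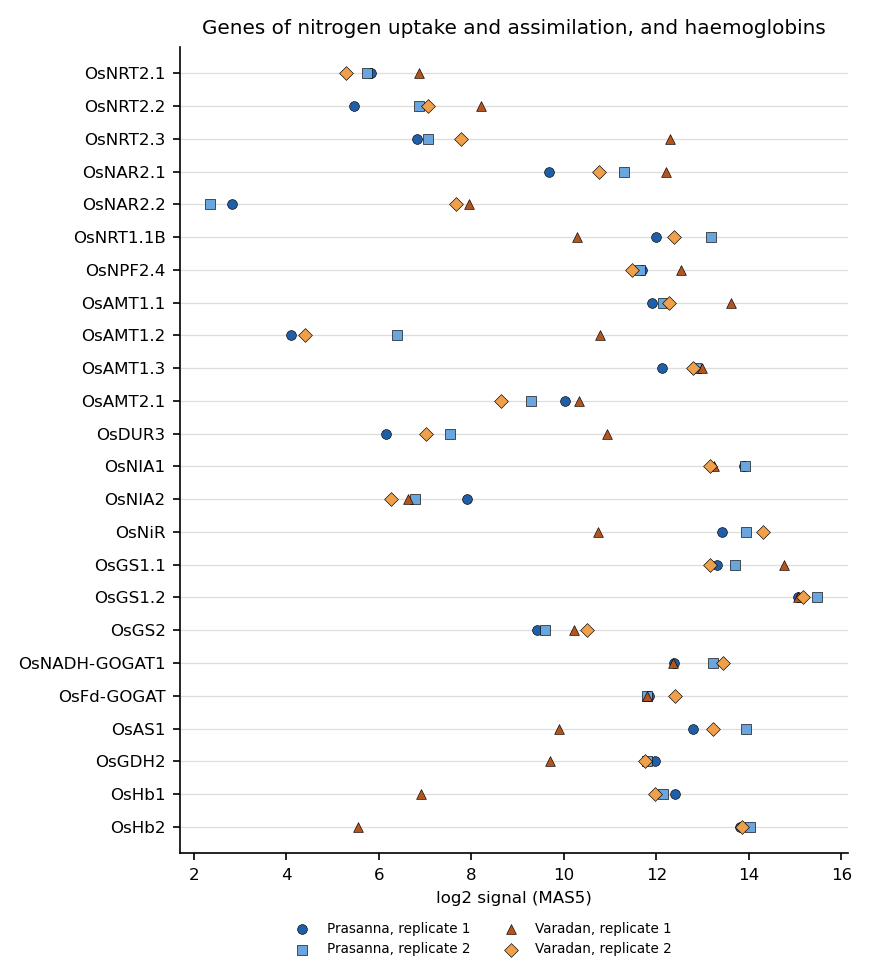
Log2 signal of the 24 tested genes of the nitrogen lists on each of the 4 arrays, in list order. The triangle of Varadan replicate 1 stands away from the other arrays in OsHb1, OsHb2, OsNRT2.3, OsAMT1.2, OsDUR3, OsNiR, OsAS1 and OsGDH2, while OsNAR2.2 separates both Varadan arrays from both Prasanna arrays.

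The other named genes that passed with higher signal in Varadan, each by its brightest probe set, had varied roles. OC-X (Os04g0350100) read 5.92 and 4.58 log2 in Prasanna, against 10.74 and 10.83 in Varadan, at least 5.37 log2 apart (adjusted p = 0.0152). OsWNK7 (Os11g0114600), a protein kinase of the WNK family, read 6.79 and 7.61 in Prasanna but 10.77 and 11.45 in Varadan (3.91 ± 0.40, adjusted p = 0.0217), and its other probe set differed by 4.22. H2B.10 (Os01g0152300), a histone H2B gene, stood at 8.86 and 9.31 on the Prasanna arrays and at 12.36 and 11.56 on those of Varadan (2.87 ± 0.35, adjusted p = 0.0365). All 3 were high on both Varadan arrays and passed with replicate 2 alone too. Histone genes are close copies of each other, so the signal of H2B.10 may include that of its relatives.

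Each by its brightest probe set, the named genes that passed with lower signal in Varadan besides OsYSL2 and OsIRO2 were OsPMEI28, SDH7 and LOX1.1. Dimmer probe sets of OsTIP2.1, OsTPP7, OsHsp18.0 and OsPP2C64 were called lower too, and of Rictpi2 and CARA higher, but are not counted here. OsPMEI28 (Os08g0108100), a pectin methylesterase inhibitor, read 11.62 and 11.28 in Prasanna, against 7.37 and 8.64 in Varadan (-3.45 ± 0.45, adjusted p = 0.0476). SDH7 (Os09g0382500), named as a subunit of succinate dehydrogenase, read 12.50 and 12.84 in Prasanna and 10.89 on both Varadan arrays (-1.78 ± 0.21, adjusted p = 0.036). LOX1.1 (Os03g0738600), a lipoxygenase, read 11.79 and 12.04 in Prasanna but 10.19 and 9.79 in Varadan (-1.92 ± 0.25, adjusted p = 0.0437). Each lay lower on both Varadan arrays than on either Prasanna array, an order that the test itself favours. Among all tested genes 18.6% lay so. Among 6 tested lipoxygenases LOX1.1 was the 1 called, where 0.351% of all genes were called lower, and the median difference was -0.71 on the 4 arrays and -0.36 with Varadan replicate 2 alone. CM-LOX1 (Os08g0508800), a chloroplast lipoxygenase, stood at 7.23 and 8.10 on the Prasanna arrays and at 5.97 and 5.92 on those of Varadan (-1.72 ± 0.45, adjusted p = 0.295). Of the 10 named genes that passed, 9 did so with either Varadan array left out and 0 with either Prasanna array left out. SDH7 and LOX1.1 did not pass in the series matrix (adjusted p of 0.0983 and 0.0777), nor did OsNAR2.2 (0.0598) and OsWNK7 (0.0635).

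Some of the named genes with the widest gaps missed the threshold. Of those higher in Varadan, OsSWEET11 (Os08g0535200), a sucrose exporter, read 6.77 and 6.17 in Prasanna, against 10.09 and 9.08 in Varadan (3.12 ± 0.45, adjusted p = 0.0642). OsASY1 (Os09g0506800), a protein of meiotic chromosome axes, read 5.79 and 5.22 in Prasanna but 8.08 and 8.92 in Varadan (3.0 ± 0.46, adjusted p = 0.0773). OsMCM9 (Os06g0218500), of the minichromosome maintenance family, stood at 5.44 and 5.96 on the Prasanna arrays and at 8.22 and 8.30 on those of Varadan (2.56 ± 0.38, adjusted p = 0.0722). All of these had both Varadan arrays above both Prasanna arrays, which follows from their choice by the widest gap. CYP71Z6 (Os02g0570500), a cytochrome P450 of diterpenoid metabolism, read 1.60 and 3.62 in Prasanna, against 7.98 and 6.63 in Varadan, at least 2.32 log2 apart (adjusted p = 0.195). PIK6-NP (Os11g0689100), named after the Pik blast resistance genes, differed by at least 1.98 (adjusted p = 0.208), but its other probe set read -1.17. OsOPR5 (Os06g0215600), an oxophytodienoate reductase homologue, differed by 2.02 ± 0.27 (adjusted p = 0.0526), and its other probe set by 1.18. OsHox3 (Os01g0643600), a homeodomain-leucine zipper factor, differed by at least 1.56 (adjusted p = 0.481).

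Of those lower in Varadan, OsKS2 (Os04g0611700), of the ent-kaurene synthase family, read 8.24 and 7.55 in Prasanna but 1.18 and 3.86 in Varadan, a difference of -2.97 or lower (adjusted p = 0.149). OsChia2a (Os10g0542900), a chitinase, stood at 13.01 and 13.26 on the Prasanna arrays and at 9.04 and 10.66 on those of Varadan (-3.29 ± 0.53, adjusted p = 0.0844), while its other probe sets read 8.19 and -0.21. LOGL4 (Os03g0697200), of the family that activates cytokinins, read 8.80 and 8.72 in Prasanna, against 5.75 and 6.48 in Varadan (-2.64 ± 0.38, adjusted p = 0.0648). The arrays of the varieties lay apart in each, which again follows from the choice by gap. HXK4 (Os07g0197100), a hexokinase, differed by -2.28 or lower and BGLU38 (Os12g0420100), a beta-glucosidase, by -3.33 or lower (adjusted p of 0.311 and 0.277). The glutaredoxins GRXC15 (Os12g0538700) and GRXS4 (Os01g0530400) differed by -3.03 ± 0.60 and -1.71 ± 0.24 (adjusted p of 0.152 and 0.057), and other probe sets of GRXS4 read 0.40 and -0.36. OsADC2 (Os04g0107600), an arginine decarboxylase that starts putrescine synthesis, read -2.04 ± 0.35, OsCslF8 (Os07g0551700), of the family that makes mixed-linkage glucan, -1.75 ± 0.30, and DL (Os03g0215200), a YABBY factor of leaf midribs, -1.26 or lower (adjusted p of 0.104, 0.101 and 0.531). With Varadan replicate 2 alone OsKS2, HXK4, OsChia2a, LOGL4, GRXC15, GRXS4, OsCslF8 and OsSWEET11 passed (adjusted p between 0.00635 and 0.0488), and OsASY1, MHX1 and OsOPR5 did so as well (0.024 to 0.0357).

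By the brightest probe set of each gene, stress and defence lists had no called gene on the 4 arrays. Among all tested genes 0.849% were called, so 0 calls say little for such short lists and families. The 4 dehydrins and late embryogenesis proteins, which accumulate on drying, had a median difference of 2.03 log2, and 1.34 with Varadan replicate 2 alone. RAB16D (Os11g0453900) read 6.75 and 7.94 in Prasanna but 10.20 and 9.37 in Varadan (2.45 ± 0.51, adjusted p = 0.172). RAB16B (Os11g0454200) stood at 8.13 and 5.67 on the Prasanna arrays and at 9.93 and 7.94 on those of Varadan (2.04 ± 0.99, adjusted p = 0.674). RAB16C and OsLEA3 differed by 2.03 ± 0.81 and 1.71 ± 0.43 (adjusted p of 0.582 and 0.277). Of the 4 genes 3 lay higher in Varadan without overlap, where 19.4% of all tested genes did, and RAB16B overlapped. Of the 3 pathogenesis-related genes, OsPR1b (Os01g0382000) read 6.16 and 5.55 in Prasanna, against 8.96 and 7.59 in Varadan (2.42 ± 0.56, adjusted p = 0.224). OsPR1a (Os07g0129200) read 11.90 and 11.57 in Prasanna but 12.07 and 13.42 in Varadan (1.01 ± 0.45, adjusted p = 0.647), and it passed with replicate 2 alone (1.68, adjusted p = 0.0294). The array also carries probe sets for the blast fungus Magnaporthe. The one for its EF1a gene stood at 7.68 and 8.50 on the Prasanna arrays and at 7.57 and 10.23 on those of Varadan. It was highest on Varadan replicate 2, as was OsPR1a, while OsPR1b was highest on Varadan replicate 1. The mean of all Magnaporthe control probe sets was 4.87 and 4.56 on the Prasanna arrays and 4.28 and 4.41 on those of Varadan, and the part of such RNA was not tested. Of 24 genes grouped as heat shock proteins, which include the factor gene OsHsf-11, 0 were called by their brightest probe set and the median was 0.33. Without overlap 11 lay higher and 4 lower in Varadan, where 19.4% and 18.6% of all tested genes did. A dimmer probe set of OsHsp18.0 was called lower. The 5 genes of the momilactone cluster, a defence diterpenoid of rice, had a median of -0.45, which was 0.16 with Varadan replicate 2 alone and 1.08 in the series matrix, with OsKSL4 (Os04g0179700) at -1.02 or lower and OsCPS4 (Os04g0178300) at -0.83 ± 0.38 (adjusted p of 0.815 and 0.648).

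By the brightest probe set of each gene, no gene of the water and ion transport lists passed. Among all tested genes 0.849% did, so 0 calls say little for lists this short. A dimmer probe set of the aquaporin gene OsTIP2.1 was called lower, as given below. Of 11 aquaporins 0 were called, the median was -0.36 as deposited and -0.01 after quantile normalization, and 7 lay lower and 2 higher in Varadan without overlap, where 18.6% and 19.4% of all genes did. OsPIP2.3 (Os04g0521100), an aquaporin of the root plasma membrane, read 15.41 and 15.48 in Prasanna, against 15.89 and 15.91 in Varadan (0.45 ± 0.14, adjusted p = 0.408). OsPIP2.6 (Os04g0233400) read 13.19 and 13.27 in Prasanna but 12.69 and 12.74 in Varadan (-0.52 ± 0.17, adjusted p = 0.469). OsTIP2.2 (Os06g0336200), of the vacuolar membrane, stood at 14.55 and 15.01 on the Prasanna arrays and at 13.05 and 14.31 on those of Varadan (-1.10 ± 0.43, adjusted p = 0.572). OsHKT2;1 (Os06g0701700), a sodium transporter, read 7.22 and 7.30 in Prasanna, against 6.40 and 3.99 in Varadan (-1.58 or lower, adjusted p = 0.595). OsHKT1;5 (Os01g0307500), which draws sodium out of the xylem, read 10.37 and 11.11 in Prasanna but 11.23 and 11.79 in Varadan (0.77 ± 0.34, adjusted p = 0.638). The silicon transporter OsLsi2 (Os03g0107300) differed by 0.39 ± 0.24 and, among 4 phosphate genes, OsSPX2 (Os02g0202200) by 0.59 ± 0.58 and OsPT2 (Os03g0150800) by -0.55 ± 0.49 (adjusted p between 0.758 and 0.845). Of 17 tested loci known to vary between rice varieties, 0 were called on the 4 arrays, where 0.849% of all tested genes were. SUB1C (Os09g0287000), a gene of the submergence tolerance locus, stood at 8.19 and 8.30 on the Prasanna arrays and at 8.79 and 10.68 on those of Varadan (1.49 ± 0.62, adjusted p = 0.602), and passed with replicate 2 alone (2.44, adjusted p = 0.0141).

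Probe sets of the same gene did not always agree. Among the 86 genes with a called probe set and at least 1 more that was tested, all tested probe sets were called in 1 direction in 14. In 46 at least 1 was not called and none had the opposite sign. In 26 another probe set had the opposite sign, at times with a small difference, as in Os04g0479500 (0.099 log2 in size). In 39 another that was not called differed by less than 1 log2. The genes given as examples were chosen after their values were seen. In Os12g0552500, 1 probe set read 5.62 and 6.24 in Prasanna, against 13.29 and 12.96 in Varadan (7.19, adjusted p = 0.003), while another read 13.38 and 13.22 in Prasanna but 4.88 and 5.69 in Varadan (-8.01, adjusted p = 0.003). One that was bright in both varieties stood at 12.84 and 12.58 on the Prasanna arrays and at 11.94 and 11.93 on those of Varadan (-0.77, adjusted p = 0.277). The gene was thus called in both directions, as were Os03g0379500 and Os05g0168400. OsTIP2.1 (Os02g0658100), a vacuolar aquaporin, read 15.28 and 15.65 in Prasanna, against 15.66 and 15.27 in Varadan on its brightest probe set, without a difference beyond the replicates. On another probe set it read 12.05 and 13.32 in Prasanna but 4.08 and 4.76 in Varadan (-7.76 or lower, adjusted p = 0.00692). Its remaining probe set lay higher in Varadan without a call, at 11.27 and 12.73 in Prasanna, against 14.21 and 13.45 in Varadan (1.83, adjusted p = 0.355). OsTPP7 (Os09g0369400), a trehalose-phosphate phosphatase known for germination under water, stood at 9.08 and 8.66 on the Prasanna arrays and at 3.18 and 1.74 on those of Varadan on 1 probe set (-3.94 or lower, adjusted p = 0.0269). Its brighter probe set read 11.89 and 11.55 in Prasanna, against 10.31 and 11.54 in Varadan (-0.79, adjusted p = 0.722). OsHsp18.0 (Os01g0184200), a small heat shock protein, differed by -3.21 or lower on one probe set (adjusted p = 0.0391) and by 0.12 on another. In such genes a difference in the sequence under the probes and a difference in RNA level cannot be told apart. OsYSL2, OsIRO2, OsIRT2 and OsNAR2.2 have 1 probe set each, so no such comparison could be made for them.

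**Figure D4:**
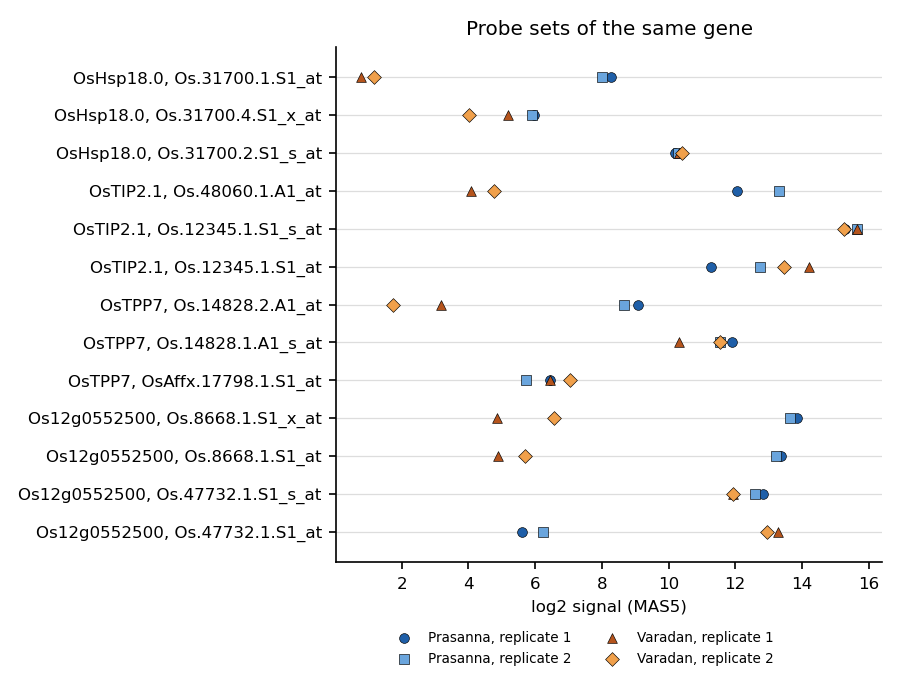
Log2 signal on each of the 4 arrays for all tested probe sets of 4 genes, OsHsp18.0, OsTIP2.1, OsTPP7 and Os12g0552500; each line is 1 probe set, circles and squares are Prasanna, triangles and diamonds Varadan. Within each gene 1 or more probe sets part the varieties by several log2 units while another shows little difference or the opposite one.

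In other genes the called probe sets were called in the same direction. Os02g0216300, which has no name in the table and 5 tested probe sets, had 3 called lower. It read 12.98 and 12.77 in Prasanna but -0.22 and 0.84 in Varadan on 1 probe set (-7.95 or lower, adjusted p = 0.003). Its brightest probe set stood at 15.70 and 15.51 on the Prasanna arrays and at 2.07 and 6.52 on those of Varadan (-9.90 or lower, adjusted p = 0.0353). A dim probe set of this gene had the opposite sign and overlapped between the varieties, at 6.20 and 3.77 in Prasanna but 5.83 and 5.97 in Varadan (adjusted p = 0.851), so the gene is among the 26. Os07g0110600 read 5.38 and 5.60 in Prasanna, against 11.01 and 11.31 in Varadan on 1 probe set (5.67, adjusted p = 0.00538), with the other two probe sets at least 5.54 and 6.29 higher, and all 3 were called. These genes too were chosen after their values were seen.

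Some of the called loci had called neighbours along the chromosome. Locus numbers follow the order of genes on a chromosome, and a neighbour was taken as a called locus within 5 places among the tested loci. This grouping was chosen after the data were seen, and it was not tested against chance. Of 123 loci with a probe set called higher in Varadan (0.568% of tested loci), 54 (43.9%) had another such locus within 5 places, in 22 groups, and the rest had none. Of 101 loci called lower (0.466%), 20 (19.8%) did, in 8 groups. The share of loci called higher ran from 0.104% on chromosome 3 to 1.60% on chromosome 9, and that called lower from 0.231% on chromosome 6 to 0.840% on chromosome 11.

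On chromosome 1, 5 of 7 neighbouring tested loci from Os01g0537250 to Os01g0541000 were called lower in Varadan. Os01g0537250 read 13.42 and 13.22 in Prasanna but 9.41 and 9.40 in Varadan (-3.91, adjusted p = 0.00547). Os01g0539900 stood at 10.03 and 9.87 on the Prasanna arrays and at 0.60 and 0.96 on those of Varadan (-5.03 or lower, adjusted p = 0.00741). Between them Os01g0538200, low in both varieties, and Os01g0539400 were not called. On chromosome 4 OsNAR2.2 closed a group of 3 called loci among 5. Os04g0479500 read 6.76 and 5.39 in Prasanna, against 10.05 and 10.02 in Varadan (3.96, adjusted p = 0.0405) and Os04g0479800 read 6.83 and 6.75 in Prasanna but 9.35 and 9.30 in Varadan (2.53, adjusted p = 0.0287). More than 5 places before them, and so outside the group, lay Os04g0478000. It stood at 2.77 and 4.16 on the Prasanna arrays and at 11.75 and 11.69 on those of Varadan (at least 6.73, adjusted p = 0.00718). The direction was the same in each, and the loci between were not called. On chromosome 12, 5 of 13 loci from Os12g0102500 to Os12g0105600 were called higher. Os12g0103300 read 5.32 and 6.48 in Prasanna, against 13.31 and 13.27 in Varadan (7.39, adjusted p = 0.00689). On chromosome 6, 4 of 5 loci from Os06g0159501 to Os06g0160001 were called higher, and on chromosome 7 all 3 loci from Os07g0110600 to Os07g0110900. On chromosome 7 Os07g0110100, 5 places before these, was called in the opposite direction (-5.11 or lower, adjusted p = 0.00692).

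**Figure D5:**
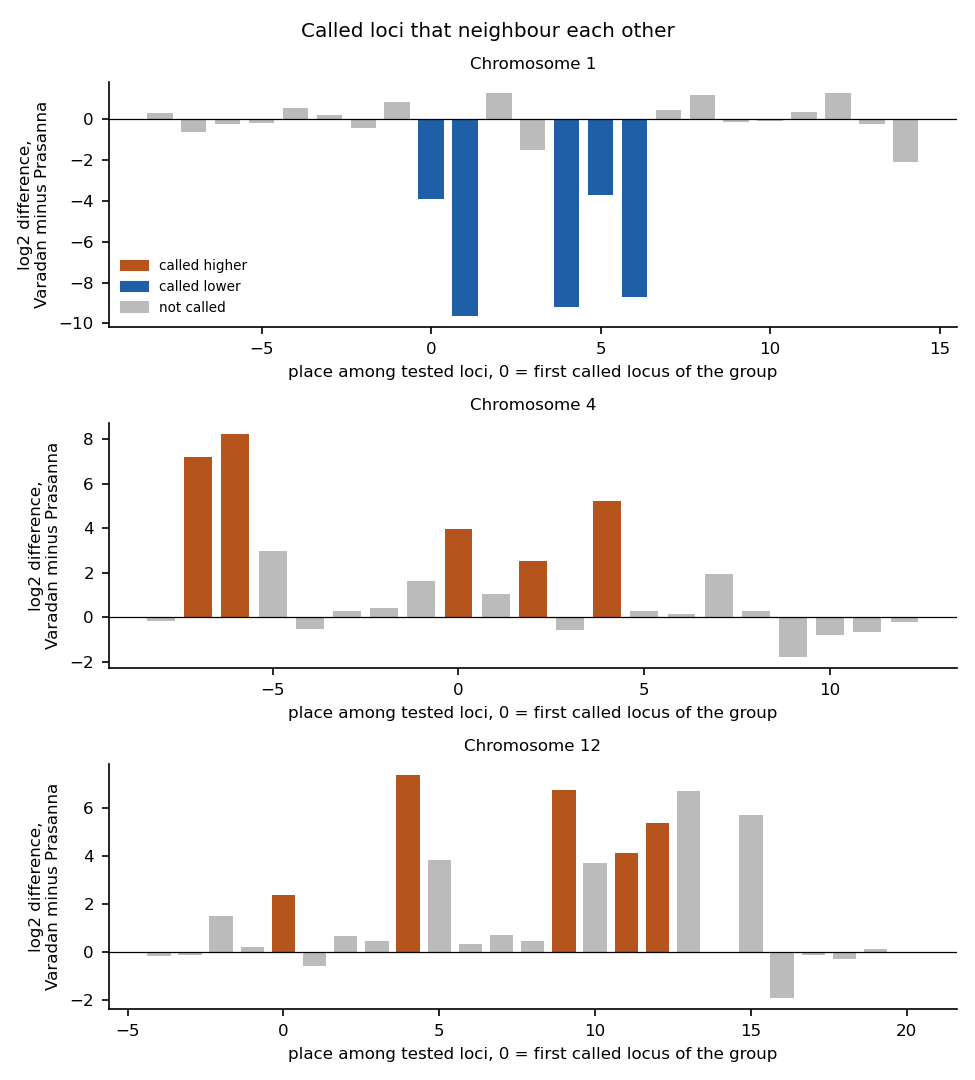
Log2 difference, Varadan minus Prasanna, of tested loci in their order along chromosomes 1, 4 and 12, each bar 1 locus, shown by its called probe set or otherwise by the one with the highest mean, as deposited and without bounds. Coloured bars are called. The called loci sit among neighbours that mostly were not called, with 5 lower loci on chromosome 1 and OsNAR2.2 at place 4 on chromosome 4.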

How the data were processed

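Root RNA of 6 samples was measured on 6 Affymetrix rice arrays, of which the 4 of seedlings with supplemented nitrogen were compared. The deposited log2 values are MAS5 signals, which summarise each array on its own, per the submitters' processing notes. The version of MAS5 is not given in the sources used here. Linear intensity values were deposited in the series matrix, and their log2 equals the values of the log2 table, so they are the same MAS5 signals. The mean linear signal after trimming 2% at each end was at least 500.0 on every array. This lower bound does not show whether the arrays were scaled to a common mean. If they were, a change common to most genes would stay hidden. Of the columns, 4 agreed by name within 1e-06 log2, and the other two, both of Varadan, were exchanged. The log2 table was the main one. No detection calls were used.

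Of 57381 probe sets, 187 controls were left out, and the 34316 with a mean over the 4 arrays at or above the 40th percentile were tested. The platform annotation gave 34860 probe sets 1 gene, 567 several and 21767 none, and none was named from several. Names came from the gene lists or from synonyms in the RefSeq gene table of assembly ASM3414082v1, which had an entry for 30586 of the probe sets with 1 gene; 2521 tested genes had a name. A gene with several probe sets is represented by its brightest one on average over the 4 arrays.

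Differences, Varadan minus Prasanna, were fitted in R 4.3.3 with limma 3.58.1, using lmFit and eBayes with trend set to true. Tests were two-sided, and p-values were adjusted over the 34316 probe sets by Benjamini-Hochberg, with a threshold of 0.05. Errors are SEs of this model, and all p-values of genes are from limma. With Varadan replicate 2 alone, the spread came from the Prasanna pair. Readings below the 40th percentile of their array were taken as not above background, and differences that rest on them are bounds without an SE; the adjusted p-values come from the values as deposited. The fit was tested on simulated data.

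The named genes were the 15 higher and the 15 lower in Varadan with the widest gap between the varieties, those past the threshold first and then those at an unadjusted p under 0.05. The list members past the threshold were added, or else the 2 with the largest difference. Other genes were named for their place in a list or family. Members, lists and tests were chosen with earlier results of these data known, and families by the start of a synonym were set after the files were seen, since the table holds no descriptions. Alternatives changed the filter, a floor for low readings, the variance model, the scaling, the deposited table, the arrays in the fit and the probe set of a gene.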

Additional observations from a re-analysis of the deposited data

How the results depend on the processing

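Without a filter, with a filter at the 60th percentile, with a robust variance, after quantile normalization, in the series matrix and with group means over 6 arrays, the count of called probe sets stayed between 205 and 292, against 290. Raising low readings to the 40th percentile gave 475 calls (252 higher, 223 lower), and leaving out the variance trend gave 53 (21 higher, 32 lower). With Varadan replicate 2 alone these settings gave 1363 (658 higher, 705 lower) and 0 calls (0 higher, 0 lower), the latter with a smallest adjusted p of 0.198 and 3299 probe sets at an unadjusted p under 0.05 by limma, against 608. Leaving out 1 array at a time gave between 0 and 1313 calls, 0 to 570 higher and 0 to 743 lower. The cause was not tested.

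With the replicate block the count was 304 (172 higher, 132 lower). Of the 10 named genes called by their brightest probe set, 7 stayed past the threshold. Whether the replicate numbers pair the samples is not stated. The deviations of the same-numbered arrays correlated at -0.00564, which cannot settle it, and the main fit did not pair them.

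Of the 10 called named genes, 10 stayed past the threshold after quantile normalization, 10 with low readings raised, 10 with a robust variance, 9 without a filter, 8 with group means over 6 arrays, 6 in the series matrix and 0 without the variance trend; with the 60th percentile 8 of 9 with a value did. Signs turned in the series matrix for OsKSL4 (1.19) and for OsHsp18.0 (-0.12, probe set bright in both varieties). The brightest probe set of OsTIP2.1 turned to 0.28 after quantile normalization and to 0.31 in the series matrix. Other probe sets of the gene had the opposite sign for PIK6-NP (-1.17), OsChia2a (8.19), GRXS4 (0.40) and OsGDH2 (0.06). With 1 array left out at a time, OsAMT1.2 ranged from -0.84 to 5.52, OsKSL4 from -2.59 to 0.25, OsSPX2 from -0.31 to 1.49, OsPT2 from -1.25 to 0.14 and the brightest probe set of OsTIP2.1 from -0.20 to 0.19. None of these 5 was called on the 4 arrays. Signals near background were noisy on single arrays, and 137 of the 290 called probe sets had at least 1 reading under the 40th percentile.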
